A study of Mus musculus with 21 samples.

Results

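The 7 genes described here encode transcription factors and cofactors that set and guard the identity of B-lineage cells, namely Pax5, Ebf1, Tcf3, Pou2af1, Pou2f2, Id2 and Id3. They were taken by name: every probe set whose annotated gene symbol is one of the 7 was kept, whatever its signal. This gave 18 probe sets of 45037 that are not controls, or 7 genes of the 18193 genes that have a probe set with a single symbol. Ebf1 has 5 probe sets, Tcf3, Pou2f2 and Id2 have 3 each, Pax5 has 2, and Pou2af1 and Id3 have 1 each. All 18 passed the filter on low signal in every fit.

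The study asked how C/EBPb and loss of BLNK act together in pre-B leukaemia, and it measured RNA on 21 mouse expression arrays in 7 groups of 3. The marrow groups are B220-positive bone marrow cells collected with a cell sorter: wild-type mice, mice with a Cebpb LAP transgene (LAP being the activator form of C/EBPb), mice labelled Blnk knockout, and mice labelled as carrying both. The other groups are LB31, a pre-B acute lymphoblastic leukaemia line that was established from a Blnk knockout mouse and grown with 5 ng/ml IL7. LB31 cells carried a pMY retroviral vector that was empty (empty-vector), held Blnk cDNA (BLNK), or held a mutant Blnk cDNA that the labels call loss-of-function (YF). BLNK is a scaffold that passes signals on from the pre-B cell receptor. All 9 LB31 arrays come from 1 line, whose Blnk-deficient origin its controls share. The promoter that drives the LAP transgene, the ages of the mice, and whether the 3 samples of a group were separate animals or cultures are not stated. The p-values therefore reflect just the variation among the deposited samples, and part or all of it may be technical.

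EBF1 and the E proteins, of which the Tcf3 products E12 and E47 are the best known, act together to open the B-cell programme in lymphoid progenitors, and PAX5 then commits the cells by activating B-cell genes and silencing genes of other lineages. OBF-1, the product of Pou2af1, is a coactivator that docks on the octamer-binding factors OCT-1 and OCT-2, and OCT-2 is the product of Pou2f2. ID2 and ID3 lack the DNA-binding region of E proteins, pair with them and keep them off E-boxes. ID2 is also known for its high level in innate lymphoid and myeloid cells, and Id3 is known as a gene induced by antigen receptor signals through EGR factors in mouse thymocytes.

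The promoters of Pou2f2 and Id3, whose signals were called in several comparisons below, are shown first, with those of the genes closest to them in role, Pou2af1 for the OCT-2 partner and Id2 for the other ID factor. Each is the RefSeq window of 250 bases before to 50 bases after the annotated start (GRCm38.p6), written 5′ to 3′ on the strand of the gene, with E-boxes (CANNTG, the site of E proteins) in capitals. The Pou2f2 start used by RefSeq here lies inside the annotated gene.
Pou2f2, chr7:25132411-25132710, minus strand: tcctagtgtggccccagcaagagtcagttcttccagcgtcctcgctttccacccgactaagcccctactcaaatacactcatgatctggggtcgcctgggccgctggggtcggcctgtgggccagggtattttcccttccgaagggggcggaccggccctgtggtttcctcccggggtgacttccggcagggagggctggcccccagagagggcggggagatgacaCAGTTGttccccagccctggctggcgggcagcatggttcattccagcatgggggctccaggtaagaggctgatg
Pou2af1, chr9:51213440-51213739, plus strand: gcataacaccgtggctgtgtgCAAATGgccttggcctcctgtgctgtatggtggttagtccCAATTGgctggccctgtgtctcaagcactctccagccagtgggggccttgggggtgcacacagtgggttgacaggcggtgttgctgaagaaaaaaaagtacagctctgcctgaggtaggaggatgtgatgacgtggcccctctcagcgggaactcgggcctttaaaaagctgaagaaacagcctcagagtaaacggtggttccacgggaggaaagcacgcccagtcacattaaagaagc
Id2, chr12:25096043-25096342, minus strand: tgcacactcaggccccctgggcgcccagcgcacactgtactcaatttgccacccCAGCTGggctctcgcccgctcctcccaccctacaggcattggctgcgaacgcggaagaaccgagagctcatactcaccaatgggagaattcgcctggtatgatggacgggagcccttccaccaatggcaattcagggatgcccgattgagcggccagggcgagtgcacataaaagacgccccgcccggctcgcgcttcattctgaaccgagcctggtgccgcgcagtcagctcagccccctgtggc
Id3, chr4:136143572-136143871, plus strand: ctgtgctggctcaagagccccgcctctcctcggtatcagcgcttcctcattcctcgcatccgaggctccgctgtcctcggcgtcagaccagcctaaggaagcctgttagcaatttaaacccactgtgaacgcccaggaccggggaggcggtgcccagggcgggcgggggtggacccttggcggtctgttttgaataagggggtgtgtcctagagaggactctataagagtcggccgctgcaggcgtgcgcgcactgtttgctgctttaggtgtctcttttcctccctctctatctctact

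In these windows Pou2f2 held the E-box CAGTTG 24 bases upstream of its start, Pou2af1 held CAAATG and CAATTG, Id2 held CAGCTG 196 bases upstream, and Id3 held no CANNTG. RefSeq lists 8 windows for the 7 genes, since Ebf1 has 2 starts, and 6 of the 8 held CANNTG, as did 72.3% of all 32851 promoter windows. CAGCTG, the E-box form favoured by E2A and itself a CANNTG, was in 1 of the 8 windows and in 16.3% of all windows. The octamer ATGCAAAT (1.74% of all windows), the EBF1 core TCCCNNGGG (6.56%) and the EGR cores GCGTGGGCG (0.612%) and GCGGGGGCG (2.91%) were in none of the 8. Both strands were searched. A match is only a description of the letters, and a missing one says only that they are not in this window.

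Replicate arrays correlated with r between 0.963 and 0.98, and the median deposited signal per array ran from 15.3 to 31.5. Levels below are log2(signal + 4) after quantile normalization of all 21 arrays, and differences come from fits normalized over the 12 arrays of marrow, over the 9 of LB31, or over all 21, so they can depart slightly from differences of the levels. The single Blnk probe set did not follow the labels, with 12.44 ± 0.09 in wild-type and 12.37 ± 0.24 in knockout-labelled marrow (SD, n = 3), and 9.63 ± 0.02 in empty-vector against 8.56 ± 0.06 in BLNK LB31. Where it lies relative to the deleted or transduced part is not given, so the marrow groups are called knockout-labelled. The Cebpb probe set 1427844_a_at averaged 5.43 in wild-type and 10.05 in LAP transgenic marrow, and it also averaged 10.22 in empty-vector LB31, for which no transgene is labelled. The other Cebpb probe set, 1418901_at, averaged 7.28 in wild-type marrow, 8.31 in LAP transgenic marrow and 4.62 in empty-vector LB31. In every group the 6 measured of 7 B-lineage markers, which include Ebf1 and Pax5, exceeded the filter level on all arrays. Marrow also carried markers of other cells: the summed signal of 8 neutrophil genes ranged from 15940 to 60560 on marrow arrays and from 30.92 to 95.07 on LB31 arrays. LAP transgenic array 3 stood apart, with the highest neutrophil sum (60560 against 29890 and 21610) and monocyte and macrophage sum (13150 against 5547 and 4162). In such bulk samples, fewer cells of a type and less RNA per cell cannot be told apart.

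**Figure D1:**
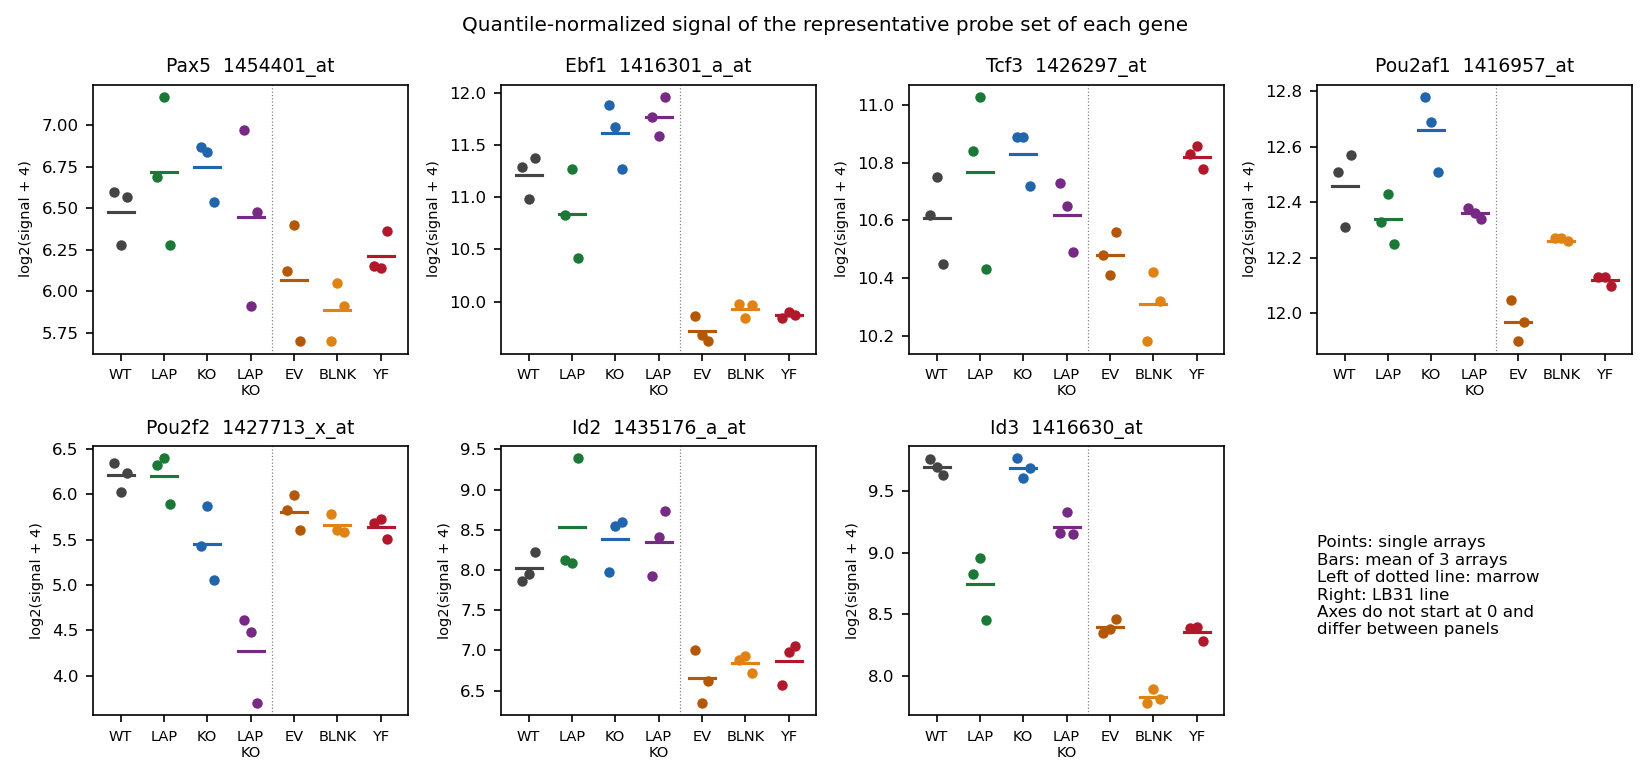
Normalized log2(signal + 4) of the representative probe set of each gene (the one with the highest mean) on every array, by group (WT, wild-type; LAP, LAP transgenic; KO, knockout-labelled; LAP KO, LAP knockout-labelled marrow; EV, empty-vector; BLNK and YF, LB31 cells). Pou2f2 lies at 3.70 to 4.61 in LAP knockout-labelled marrow, below every other array, and Id3 lies at 7.78 to 7.89 in BLNK LB31, also below every other array.

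In marrow, the calls fell on Ebf1, Pou2f2 and Id3, while the representative probe sets of Pax5, Tcf3, Pou2af1 and Id2 were called in none of the marrow comparisons. A probe set counts as called at an adjusted p under 0.05 (limma, two-sided, Benjamini-Hochberg over all probe sets tested). Between knockout-labelled and wild-type marrow limma called 0 of 7 genes by the representative probe set (2 had an unadjusted p under 0.05) and 3 of 18 probe sets, against 12.6% of all 30128 probe sets. Between LAP transgenic and wild-type marrow 1 of 7 was called (Id3, lower), against a background of 2.57%. Between LAP knockout-labelled and wild-type marrow 3 of 7 were called (Ebf1 higher, Id3 and Pou2f2 lower), with 25.2% of all probe sets called. LAP knockout-labelled against knockout-labelled marrow gave 2 of 7 (Id3 and Pou2f2, both lower) at a background of 5.08%, and against LAP transgenic marrow it gave 3 of 7 (Ebf1 and Id3 higher, Pou2f2 lower) at 21.1%. For the interaction of LAP and the knockout label, limma called 0 of 7 genes (2 had an unadjusted p under 0.05) and 1 of 18 probe sets, with 1.21% of all called. Counted over genes, each by its representative probe set, the shares called were higher than over probe sets. In the order above they were 15.4%, 3.28%, 29.6%, 6.75%, 25.3% and 1.5%. These comparisons share groups, so they are not separate lines of evidence.

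In LB31, the members called were Id3, Pou2af1, Tcf3 and Ebf1. BLNK against empty-vector gave 3 of 7 (Ebf1 and Pou2af1 higher, Id3 lower), against 11.4% of 29478 probe sets. YF against empty-vector gave 1 of 7 (Tcf3, higher), where 0.227% of all probe sets were called. BLNK against YF gave 3 of 7 (Pou2af1 higher, Id3 and Tcf3 lower), against 6.4%. Counted over genes, the shares called in these LB31 comparisons were 14.2%, 0.269% and 8.03%. Between the line and marrow most of the transcriptome differed. By the representative probe set, 6 of 7 genes were lower in the empty-vector line than in knockout-labelled marrow, where 56.9% of 33764 probe sets were called. Of the 18 probe sets 11 were called lower there and 3 higher, the latter belonging to Pax5, Ebf1 and Tcf3. With median centring 4 of 7 genes were called. From LAP knockout-labelled marrow 5 of 7 genes differed, where 55.8% of probe sets did. Counted over genes, the shares called were 59.2% and 58.5%. The member shares in these last comparisons are to be read against those high backgrounds. Leukaemia, cell line, culture, growth, cell mix and vector cannot be told apart there. The Cebpb probe set 1427844_a_at differed too, at 10.22 in empty-vector LB31 and 5.02 in knockout-labelled marrow, against 9.90 in LAP knockout-labelled marrow.

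**Figure D2:**
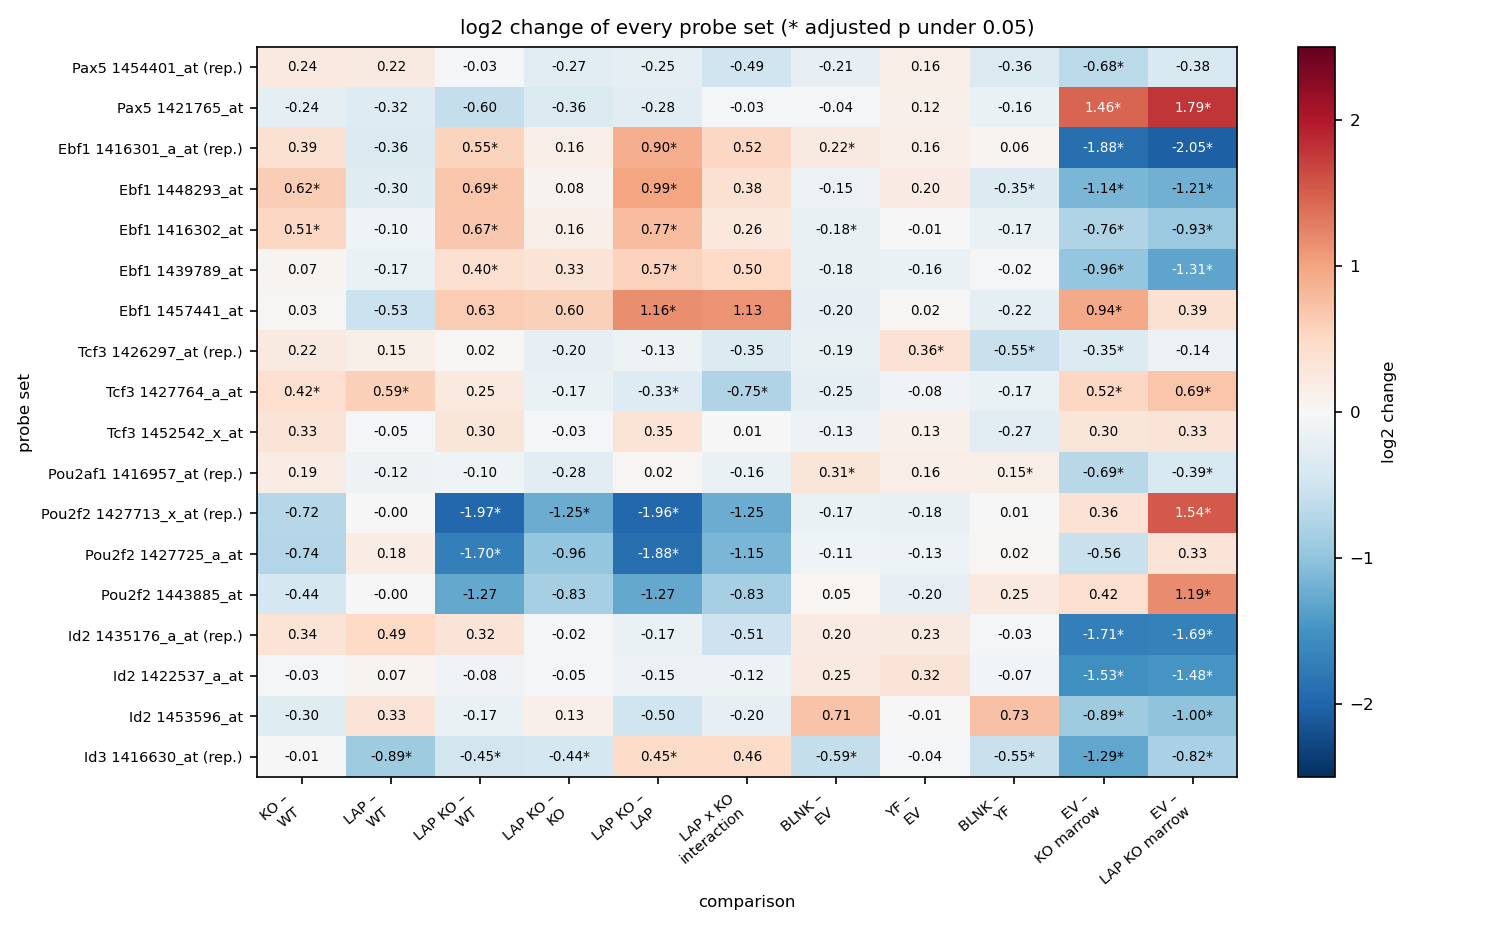
Log2 change of each of the 18 probe sets (rows, grouped by gene; rep. marks the representative) in the 11 comparisons (columns; WT, LAP, KO and LAP KO are marrow groups, EV, BLNK and YF are LB31 cells). Red is higher and blue lower in the group named first, and an asterisk marks an adjusted p under 0.05; Pou2f2 shows -1.97 for LAP knockout-labelled minus wild-type and Ebf1 -2.05 in empty-vector LB31 against LAP knockout-labelled marrow.

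Pax5 (chr4:44524748-44710694, GRCm38.p6), the commitment factor, was not called in any comparison among the marrow groups or among the LB31 groups. Probe set 1454401_at read 6.60, 6.28 and 6.57 in wild-type, 6.69, 7.17 and 6.28 in LAP transgenic, 6.87, 6.84 and 6.54 in knockout-labelled, and 6.97, 5.91 and 6.48 in LAP knockout-labelled marrow. These groups overlapped throughout, and the change between LAP knockout-labelled and wild-type marrow was -0.03 ± 0.24 (SE, n = 3 per group, adjusted p = 0.946). In LB31 it read 6.12, 6.40 and 5.70 with empty vector, 5.70, 6.05 and 5.91 with BLNK, and 6.15, 6.14 and 6.36 with YF. All neighbours in the order of the 7 groups overlapped. Against knockout-labelled marrow, empty-vector LB31 was lower by this probe set, with a change of -0.68 ± 0.24 (adjusted p = 0.0189), and the call was lost without knockout-labelled array 1 or 2 or empty-vector array 3 (adjusted p up to 0.114). The dimmer probe set 1421765_at went the other way, with 4.49 to 5.02 in knockout-labelled marrow and 6.13 to 6.42 in empty-vector LB31, a change of 1.46 ± 0.24 (adjusted p = 1.79e-05). The probe sets correlated at r = -0.627 over the 21 arrays, so the direction for Pax5 between line and marrow depends on the probe set.

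Of 12 genes listed as activated by PAX5, 10 were measured. In LAP knockout-labelled against wild-type marrow 2 were higher and 7 lower, with a median log2 change of -0.71 against 0.04 over all genes, of which 29.6% were called. The lower ones included Cd55, a complement regulator (-3.90, adjusted p = 1.93e-09), Ikzf3, which encodes the zinc-finger factor Aiolos (-2.68, adjusted p = 9.5e-09), and Cd72, a B-cell coreceptor (-1.35, adjusted p = 3.31e-06). Lef1, a nuclear partner of beta-catenin, was higher (1.93, adjusted p = 1.85e-05). The summed signal of 4 mature B-cell markers moved with this list, at 9721 to 10230 in wild-type and 845 to 972 in LAP knockout-labelled marrow. Sums of plasmacytoid dendritic cell markers (1192 to 1569 and 431 to 783.1) and plasma cell markers (4689 to 5055 and 3002 to 3361) also fell. Those of neutrophil, monocyte and macrophage, natural killer and megakaryocyte markers were higher. The part of these cells was not tested. Knockout-labelled marrow without LAP had 2 genes of the list higher and 3 lower (15.4% of genes called). With LAP alone none of the list passed, the nearest being Cd55 at -0.63 (adjusted p = 0.0703, 3.28% of genes called). LAP knockout-labelled against knockout-labelled marrow had 6 of the list lower and 0 higher (6.75% of genes called). The interaction of LAP and the knockout label had 3 lower and 0 higher (1.5% of genes called). These were Ikzf3 (-1.49, adjusted p = 0.00143), Spib (-1.10, adjusted p = 0.00729) and Irf8 (-1.07, adjusted p = 0.00152). In LB31, BLNK gave 3 higher and 6 lower against empty vector (14.2% of genes called). The list holds Blnk, the manipulated gene, which is counted among the lower ones here (-1.15, adjusted p = 8.01e-08) and in LAP knockout-labelled marrow (-0.39, adjusted p = 0.0181). BLNK cells had Cd72 at 0.86 (adjusted p = 3.12e-07) and Spib, an ETS factor, at -0.91 (adjusted p = 5.9e-07). All 6 genes listed as repressed by PAX5 were measured. LAP transgenic against wild-type marrow had 3 of them higher and 0 lower, Ccl3 (2.47, adjusted p = 0.00579), Flt3 (1.83, adjusted p = 0.031) and Notch1 (0.61, adjusted p = 0.015), with a median of 0.69 and 3.28% of genes called. Without LAP transgenic array 3, the array with the highest neutrophil and monocyte sums, 2 of the 6 were higher (2.2% of genes called), and Flt3 gave 1.42 (adjusted p = 0.0836). The knockout label alone gave 2 higher and 1 lower (15.4% of genes called), LAP knockout-labelled marrow had 2 higher than wild-type (29.6% of genes called), and against LAP transgenic marrow it had 2 lower (25.3% of genes called). In LB31, BLNK gave 3 higher and 1 lower: the chemokine gene Ccl3 rose by 5.04 (adjusted p = 7.53e-07), Flt3, a receptor kinase of early progenitors, by 1.60 (adjusted p = 0.0372), and Cd28, a T-cell costimulatory receptor, by 1.13 (adjusted p = 0.000111), while Notch1 fell by 0.63 (adjusted p = 0.00118). The signal of Pax5 itself did not pass the test in either of these comparisons.

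Ebf1 (chr11:44618100-45008096), the pioneer factor, was higher in LAP knockout-labelled than in the other LAP marrow and lower in LB31 than in any marrow group by its representative probe set. Probe set 1416301_a_at read 11.29, 10.98 and 11.37 in wild-type, 10.83, 11.27 and 10.42 in LAP transgenic, 11.88, 11.67 and 11.27 in knockout-labelled, and 11.77, 11.58 and 11.96 in LAP knockout-labelled marrow. The LAP knockout-labelled arrays lay above all wild-type and LAP transgenic arrays and overlapped with the knockout-labelled ones. Against LAP transgenic marrow the change was 0.90 ± 0.19 (adjusted p = 0.00346, 1.87-fold), and all 5 probe sets were called higher, at 0.57 to 1.16. Without LAP transgenic array 3 it was 0.70 (adjusted p = 0.0111). Against wild-type marrow the change was 0.55 ± 0.19 (adjusted p = 0.0489), and 4 of the 5 probe sets were called, or 2 of the 5 with median centring, where 1416301_a_at gave 0.41 (adjusted p = 0.162) and 1439789_at gave 0.29 (adjusted p = 0.106). That call of the representative was lost on leaving out wild-type array 1, 2 or 3, LAP transgenic array 1, knockout-labelled array 2 or LAP knockout-labelled array 1, 2 or 3 (adjusted p up to 0.18), whereas 1448293_at (0.69 ± 0.11, adjusted p = 0.000484) and 1416302_at (0.67 ± 0.15, adjusted p = 0.00473) stayed called without any 1 array.

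Without LAP, the knockout label went with the same direction at part of the Ebf1 probe sets. Probe set 1448293_at read 10.74, 10.60 and 10.76 in wild-type and 11.50, 11.31 and 11.22 in knockout-labelled marrow, with no overlap, and changed by 0.62 ± 0.11 (adjusted p = 0.00271). Probe set 1416302_at changed by 0.51 ± 0.15 (adjusted p = 0.0398), a call lost on leaving out any of 7 of the 12 marrow arrays (wild-type 1, 2 and 3, knockout-labelled 1 and 2, LAP knockout-labelled 1 and 3; adjusted p up to 0.16), with median centring (0.38, adjusted p = 0.136) and with no filter (0.51, adjusted p = 0.0603). The other 3 did not pass, the representative with 0.39 ± 0.19 (adjusted p = 0.221). The interaction with LAP was 0.52 ± 0.27 for the representative (adjusted p = 0.434), so a difference between the knockout-label effects with and without LAP did not pass the test.

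In LB31 Ebf1 read 9.86, 9.68 and 9.62 with empty vector, 9.98, 9.84 and 9.97 with BLNK, and 9.84, 9.90 and 9.87 with YF, below every marrow array. The log2 change of empty-vector LB31 against knockout-labelled marrow was -1.88 ± 0.16 (adjusted p = 1.35e-09, 3.69-fold). The probe sets 1448293_at, 1416302_at and 1439789_at also fell, at -1.14, -0.76 and -0.96, while the dim 1457441_at rose by 0.94 (adjusted p = 0.00151), a call absent in the values as deposited (0.24, adjusted p = 0.444). Over the 21 arrays the first 3 correlated with the representative at r = 0.88 to 0.939, and 1457441_at at r = -0.581. Within LB31 the probe sets did not move together: BLNK against empty vector gave 0.22 ± 0.07 (adjusted p = 0.044) at the representative, where the arrays overlapped, and -0.18 ± 0.05 (adjusted p = 0.0336) at 1416302_at. The first call was lost on leaving out any of 7 of the 9 arrays (empty-vector 2 and 3, BLNK 1 and 3, YF 1, 2 and 3; adjusted p up to 0.159), and the second on leaving out any of 8, all but empty-vector array 3 (adjusted p up to 0.129). BLNK against YF was called only at 1448293_at (-0.35 ± 0.09, adjusted p = 0.0306), a call lost without BLNK array 1 or 2 or YF array 1, 2 or 3 (adjusted p up to 0.14).

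Tcf3 (chr10:80409541-80433976), which encodes the E proteins E12 and E47, differed between the BLNK forms in LB31. Probe set 1426297_at read 10.48, 10.41 and 10.56 with empty vector, 10.18, 10.42 and 10.32 with BLNK, and 10.83, 10.86 and 10.78 with YF. The YF arrays lay above both other groups, and BLNK and empty vector overlapped. BLNK minus YF was -0.55 ± 0.06 (adjusted p = 0.000123, 1.46-fold), a call kept without any 1 array. YF exceeded empty vector by 0.36 ± 0.06 (adjusted p = 0.0471). That call was lost without any 1 array other than empty-vector array 1, with adjusted p up to 0.224. The other probe sets, 1427764_a_at and 1452542_x_at, changed by -0.17 ± 0.12 and -0.27 ± 0.13 between BLNK and YF, neither called, and they correlated with the representative at r = -0.0435 and 0.0366 over the 21 arrays.

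In marrow the representative Tcf3 probe set was not called, with 10.62, 10.75 and 10.45 in wild-type and 10.73, 10.65 and 10.49 in LAP knockout-labelled marrow. Probe set 1427764_a_at read 8.89, 8.89 and 8.90 in wild-type, 9.39, 9.67 and 9.48 in LAP transgenic, 9.50, 9.35 and 9.14 in knockout-labelled, and 9.32, 9.11 and 9.02 in LAP knockout-labelled marrow. All arrays of the other 3 marrow groups lay above the wild-type arrays. The changes against wild-type were 0.59 ± 0.11 with LAP (adjusted p = 0.0118), 0.42 ± 0.11 with the knockout label (adjusted p = 0.0183) and 0.25 ± 0.11 with both (adjusted p = 0.103). The first call was lost without wild-type array 1 or 3 (adjusted p up to 0.057) and in the values as deposited (0.47, adjusted p = 0.0548). The second was lost without wild-type array 1, 2 or 3 or knockout-labelled array 1 or 2 (adjusted p up to 0.0919) and with median centring (0.30, adjusted p = 0.0943). Between line and marrow the direction for Tcf3 again depended on the probe set: empty-vector LB31 minus knockout-labelled marrow was -0.35 ± 0.11 at 1426297_at (adjusted p = 0.00926), which turned to 0.08 with median centring, and 0.52 ± 0.12 at 1427764_a_at (adjusted p = 0.000667).

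**Figure D3:**
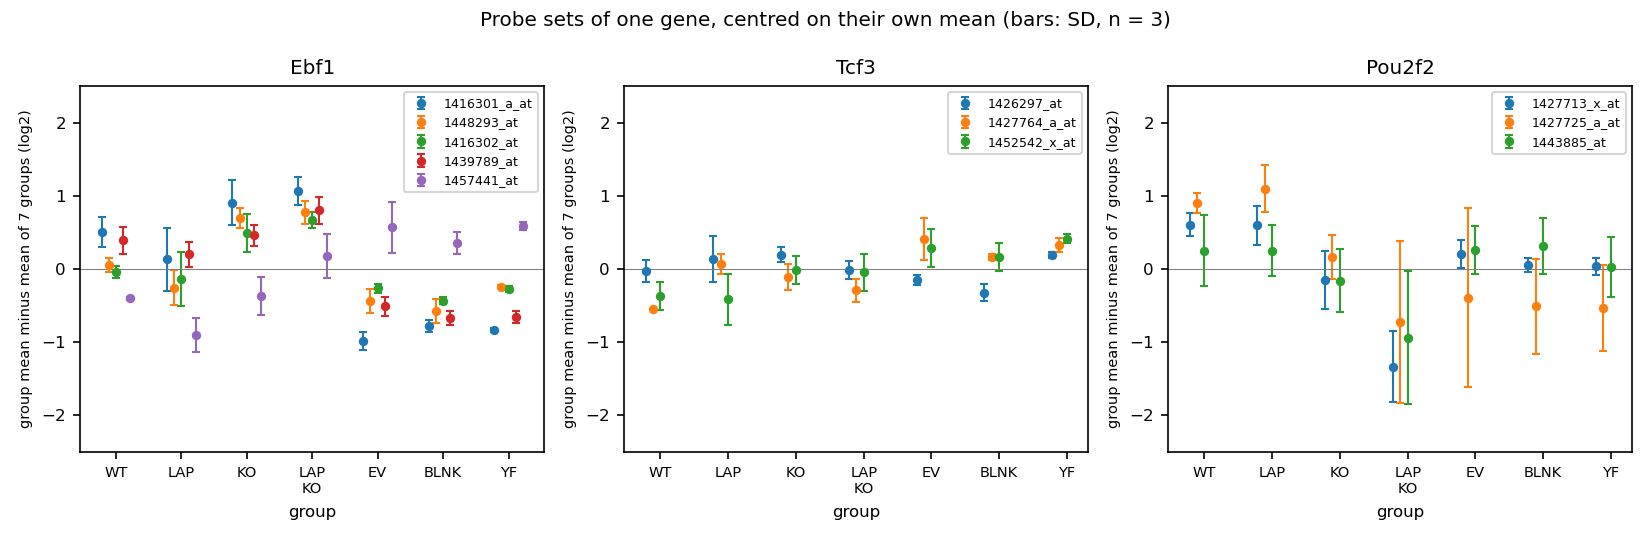
Group means of every probe set of Ebf1, Tcf3 and Pou2f2 in the 7 groups, each centred on its own mean over the groups (log2; bars are the SD of 3 arrays). For Ebf1 3 probe sets are lower in every LB31 group than in every marrow group, 1448293_at is at 10.40 in YF LB31 against 10.39 in LAP transgenic marrow, and 1457441_at runs the other way, the 3 Tcf3 probe sets differ in order, and the 3 Pou2f2 probe sets are all lowest in LAP knockout-labelled marrow.

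Of 10 genes listed as EBF1 or E2A targets, 9 were measured in marrow, and they did not move one way. In LAP knockout-labelled against wild-type marrow 4 were higher and 3 lower, with a median of 0.35 against 0.04 over all genes, of which 29.6% were called. The higher ones were the surrogate light chain genes Igll1 (2.65, adjusted p = 2.33e-08) and Vpreb1 (1.96, adjusted p = 1.82e-08), Dntt, which encodes terminal transferase (1.98, adjusted p = 3.02e-05), and Vpreb3 (0.38, adjusted p = 0.00733). The lower ones included Blk, a SRC-family kinase of B cells (-2.57, adjusted p = 4.47e-07), and Cd79b, a signalling chain of the B-cell receptor (-0.78, adjusted p = 4.79e-05). The knockout label alone gave 4 higher and 2 lower (15.4% of genes called). Igll1 stood there at 2.23, Vpreb1 at 1.60, Dntt at 2.07 and Vpreb3 at 0.31. LAP knockout-labelled against knockout-labelled marrow gave 0 higher and 1 lower, Blk (-1.94, 6.75% of genes called). LAP alone gave 1 higher, Vpreb1 (0.61), and 1 lower, Dntt (-1.01, 3.28% of genes called). In BLNK against empty-vector LB31 7 were measured (14.2% of genes called), of which 1 was higher (Blk, 1.04, adjusted p = 6.65e-07) and 6 lower, with Dntt at -2.90 (adjusted p = 7.18e-12). The recombinase genes Rag1 and Rag2 did not pass the filter in LB31, and in the fit of all arrays they gave -9.72 (adjusted p = 5.11e-19) and -6.91 (adjusted p = 1.71e-17) for empty-vector LB31 against knockout-labelled marrow, sizes that depend on the pseudocount.

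Pou2f2 (chr7:25087350-25180797), which encodes OCT-2, was lowest in marrow with both the LAP transgene and the knockout label. Probe set 1427713_x_at read 6.35, 6.03 and 6.24 in wild-type, 6.32, 6.40 and 5.90 in LAP transgenic, 5.43, 5.87 and 5.06 in knockout-labelled, and 4.61, 4.48 and 3.70 in LAP knockout-labelled marrow. LAP transgenic and wild-type arrays overlapped, knockout-labelled arrays lay below both, and LAP knockout-labelled arrays lay below all others. Against wild-type marrow the change was -1.97 ± 0.26 (adjusted p = 8.63e-05, 3.91-fold), against LAP transgenic marrow -1.96 ± 0.26 (adjusted p = 0.000108), and against knockout-labelled marrow -1.25 ± 0.26 (adjusted p = 0.0123). The last call was lost without knockout-labelled array 2 (adjusted p = 0.0803). The LAP knockout-labelled arrays sat near the filter level, which averaged 4.06, and 2 of the 3 exceeded it, so the size of the fold depends on the pseudocount (-2.15 with 1 and -1.50 with 16).

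The knockout label alone gave -0.72 ± 0.26 for Pou2f2 (adjusted p = 0.0964, and 0.0441 without LAP knockout-labelled array 3), and LAP alone left the mean at 6.39 in both groups of the marrow fit (adjusted p = 0.998). The interaction was -1.25 ± 0.37 (adjusted p = 0.154), so the larger drop with both did not pass as more than the sum of the single effects. The other probe sets ran the same way: against wild-type marrow 1427725_a_at changed by -1.70 ± 0.43 (adjusted p = 0.00997) and 1443885_at by -1.27 ± 0.44 (adjusted p = 0.0507). Against knockout-labelled marrow neither of these probe sets was called. Without LAP transgenic array 3 they gave -0.97 (adjusted p = 0.234) and -0.84 (adjusted p = 0.333) there. They correlated with the representative at r = 0.598 and 0.559 over the 21 arrays. LAP knockout-labelled array 3 was lowest by 1427725_a_at (2.78 against 4.73 and 4.68) and array 2 by 1443885_at (2.60 against 4.09 and 4.24).

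The summed signal of 4 measured mature B-cell markers (Fcer2a, Cr2, Ms4a1 and Ccr7) fell in the same order, from 9721 to 10230 in wild-type and 7820 to 8800 in LAP transgenic to 5650 to 7238 in knockout-labelled and 845 to 972 in LAP knockout-labelled marrow. All 4 exceeded the filter level on every array of the first 3 groups, and 3 did in LAP knockout-labelled marrow, where Fcer2a exceeded it on 1 of 3 arrays. Their part in the Pou2f2 result was not tested. In LB31, where that sum was 29.46 to 60.53, Pou2f2 read 5.83, 5.99 and 5.61 with empty vector, 5.78, 5.61 and 5.59 with BLNK, and 5.69, 5.73 and 5.51 with YF. Every LB31 array exceeded every LAP knockout-labelled marrow array, and the LB31 groups overlapped. Empty-vector LB31 was 1.54 ± 0.23 above LAP knockout-labelled marrow (adjusted p = 6.1e-06) and did not pass against knockout-labelled marrow (0.36 ± 0.23, adjusted p = 0.201). Of the other probe sets, 1443885_at was called as well (1.19 ± 0.39, adjusted p = 0.0118; lost without LAP knockout-labelled array 2 or empty-vector array 2, adjusted p up to 0.122), and 1427725_a_at was not (0.33 ± 0.52, adjusted p = 0.61).

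Pou2af1 (chr9:51213690-51240079), which encodes OBF-1, the partner of OCT-2, was bright everywhere and was not called in marrow. It read 12.51, 12.31 and 12.57 in wild-type, 12.33, 12.43 and 12.25 in LAP transgenic, 12.78, 12.69 and 12.51 in knockout-labelled, and 12.38, 12.36 and 12.34 in LAP knockout-labelled marrow. The knockout-labelled arrays lay above all LAP transgenic and all LAP knockout-labelled arrays, and the other groups overlapped. LAP knockout-labelled minus knockout-labelled was -0.28 ± 0.08 (adjusted p = 0.0536), which became a call without wild-type array 2, LAP transgenic array 2 or 3 or knockout-labelled array 3 (adjusted p down to 0.0126), and LAP knockout-labelled minus wild-type was -0.10 ± 0.08 (adjusted p = 0.409), or -0.31 (adjusted p = 0.0296) with median centring. In LB31 it read 12.05, 11.90 and 11.97 with empty vector, 12.27, 12.27 and 12.26 with BLNK, and 12.13, 12.13 and 12.10 with YF, without overlap. BLNK was above empty vector by 0.31 ± 0.04 (adjusted p = 0.000248, 1.24-fold), a call kept without any 1 array. BLNK also exceeded YF by 0.15 ± 0.04 (adjusted p = 0.0468), a call lost without empty-vector array 3 or any BLNK or YF array (adjusted p up to 0.178). The call was also lost in the values as deposited (0.10, adjusted p = 0.798) and with median centring (0.22, adjusted p = 0.354). It was lost too with no filter (0.15, adjusted p = 0.0972), the replicate block (0.15, adjusted p = 0.0558) and all 21 arrays (0.14, adjusted p = 0.434). Empty-vector LB31 was below knockout-labelled marrow (-0.69 ± 0.07, adjusted p = 1.56e-08), but with median centring the change was -0.10 (adjusted p = 0.423), and that against LAP knockout-labelled marrow (-0.39 ± 0.07, adjusted p = 4.56e-05) turned to 0.19 (adjusted p = 0.134).

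All 6 genes listed as dependent on OCT-2 or OBF-1 were measured in marrow. In LAP knockout-labelled against wild-type marrow 1 was higher and 5 lower, with a median of -2.10 against 0.04 over all genes, of which 29.6% were called. Cxcr5, the receptor that guides B cells into follicles, fell by 5.46 (adjusted p = 9.7e-11), Ms4a1, which encodes CD20, by 3.12 (adjusted p = 1.91e-11), Crisp3 by 2.95 (adjusted p = 0.00058), Spib by 1.24 (adjusted p = 8.4e-06) and Btk, a kinase of B-cell receptor signalling, by 0.51 (adjusted p = 0.00123). Cd36, a scavenger receptor, rose by 1.84 (adjusted p = 6.97e-06). Ms4a1 is also in the mature B-cell list, and Spib is also in the list of genes activated by PAX5. The knockout label alone gave 1 higher and 4 lower against wild-type marrow (15.4% of genes called). Cd36 stood there at 1.79, Crisp3 at -3.13, Cxcr5 at -1.43, and Btk and Ms4a1 each at -0.45. LAP knockout-labelled against knockout-labelled marrow had 3 of the 6 lower and 0 higher (6.75% of genes called). Cd36, Crisp3 and Btk were not called there (0.05, 0.18 and -0.05). For the interaction of LAP and the knockout label 3 of the 6 were lower and 0 higher (1.5% of genes called). These were Cxcr5 (-3.18, adjusted p = 1.36e-05), Ms4a1 (-2.54, adjusted p = 9.62e-08) and Spib (-1.10, adjusted p = 0.00729). In LAP transgenic against wild-type marrow 2 of 6 were lower (3.28% of genes called), Cxcr5 (-0.85, adjusted p = 0.0231) and Crisp3 (-2.22, adjusted p = 0.0329). Without LAP transgenic array 3 the call of Crisp3 was lost (-2.36, adjusted p = 0.0603). In BLNK against empty-vector LB31 4 were measured and 2 were lower (14.2% of genes called), Spib and Btk (-0.29, adjusted p = 0.00543).

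**Figure D4:**
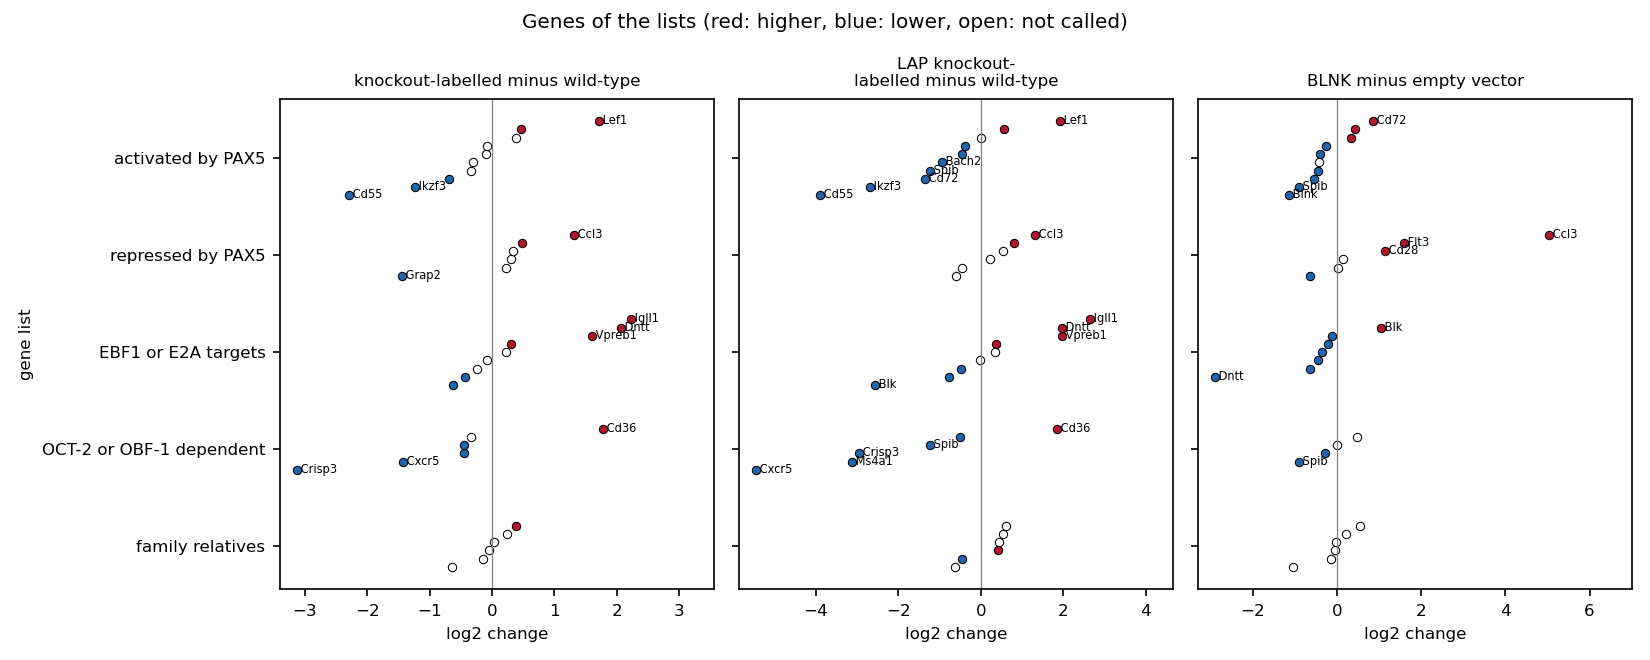
Log2 change (horizontal axis) of each measured gene of the 5 gene lists (vertical axis) in marrow, for the knockout label alone and with LAP (each against wild-type), and in BLNK against empty-vector LB31; filled points passed the test and larger ones by change carry their names. In the middle panel 5 of the 6 genes dependent on OCT-2 or OBF-1 lie below 0, with Cxcr5 at -5.46.

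Id3 (chr4:136143822-136145392), an inhibitor of E proteins, was lower with the LAP transgene in marrow and lower with BLNK in LB31. It read 9.76, 9.70 and 9.63 in wild-type, 8.83, 8.96 and 8.45 in LAP transgenic, 9.77, 9.61 and 9.69 in knockout-labelled, and 9.16, 9.33 and 9.15 in LAP knockout-labelled marrow. LAP transgenic arrays were lowest, LAP knockout-labelled arrays lay between, and wild-type and knockout-labelled arrays overlapped at the top. LAP transgenic minus wild-type was -0.89 ± 0.11 (adjusted p = 0.00129, 1.85-fold), a call kept without any 1 array and at -0.75 without LAP transgenic array 3 (adjusted p = 0.00113). With the knockout label the LAP change was -0.44 ± 0.11 (adjusted p = 0.0389). That call held on leaving out LAP transgenic array 2 or 3 and was lost on leaving out any other of the 12 marrow arrays (adjusted p up to 0.15). It was also lost in the values as deposited (-0.40, adjusted p = 0.179), with median centring (-0.42, adjusted p = 0.112) and with no filter (-0.44, adjusted p = 0.0503). The interaction was 0.46 ± 0.16 (adjusted p = 0.227), so the LAP changes with and without the knockout label did not pass as different.

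Among LAP marrow, Id3 was higher with the knockout label than without it (0.45 ± 0.11, adjusted p = 0.0111), a call lost without LAP knockout-labelled array 2 (adjusted p = 0.0537), and at 0.30 (adjusted p = 0.028) without LAP transgenic array 3. The knockout label without LAP gave -0.01 ± 0.11 (adjusted p = 0.977). LAP knockout-labelled against wild-type marrow gave -0.45 ± 0.11 (adjusted p = 0.00969), but -0.19 (adjusted p = 0.338) in the values as deposited, where the median of all probe sets stood at 0.33. In LB31, Id3 read 8.35, 8.38 and 8.46 with empty vector, 7.78, 7.89 and 7.81 with BLNK, and 8.39, 8.40 and 8.28 with YF. BLNK arrays lay below both other groups, which overlapped. BLNK against empty vector gave -0.59 ± 0.07 (adjusted p = 0.000102, 1.51-fold) and BLNK against YF -0.55 ± 0.07 (adjusted p = 0.000273), both kept without any 1 array, although the first was not called in the values as deposited (-0.47, adjusted p = 0.25). YF against empty vector gave -0.04 ± 0.07 (adjusted p = 0.83). Empty-vector LB31 was below knockout-labelled marrow (-1.29 ± 0.10, adjusted p = 1.96e-10) and LAP knockout-labelled marrow (-0.82 ± 0.10, adjusted p = 2.85e-07).

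Id2 (chr12:25093799-25096092), the other ID gene among the members, was called in no comparison within marrow or within LB31. Probe set 1435176_a_at read 7.87, 7.95 and 8.23 in wild-type, 8.12, 8.09 and 9.39 in LAP transgenic, 7.98, 8.55 and 8.60 in knockout-labelled, and 7.92, 8.41 and 8.73 in LAP knockout-labelled marrow. The groups overlapped, and the highest value was that of LAP transgenic array 3, the array with the highest neutrophil and monocyte sums. LAP transgenic minus wild-type was 0.49 ± 0.29 (adjusted p = 0.392), and 0.08 (adjusted p = 0.894) without that array. Natural killer markers, 5 of 6 measured, summed to 583.1 to 625.7 in wild-type, 517.9 to 733.4 in LAP transgenic, 872.2 to 1114 in knockout-labelled and 693.1 to 1144 in LAP knockout-labelled marrow. Megakaryocyte markers summed to 2392 to 2502 in wild-type and 6552 to 9747 in LAP knockout-labelled marrow. The part of these cells in the Id2 signal was not tested.

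**Figure D5:**
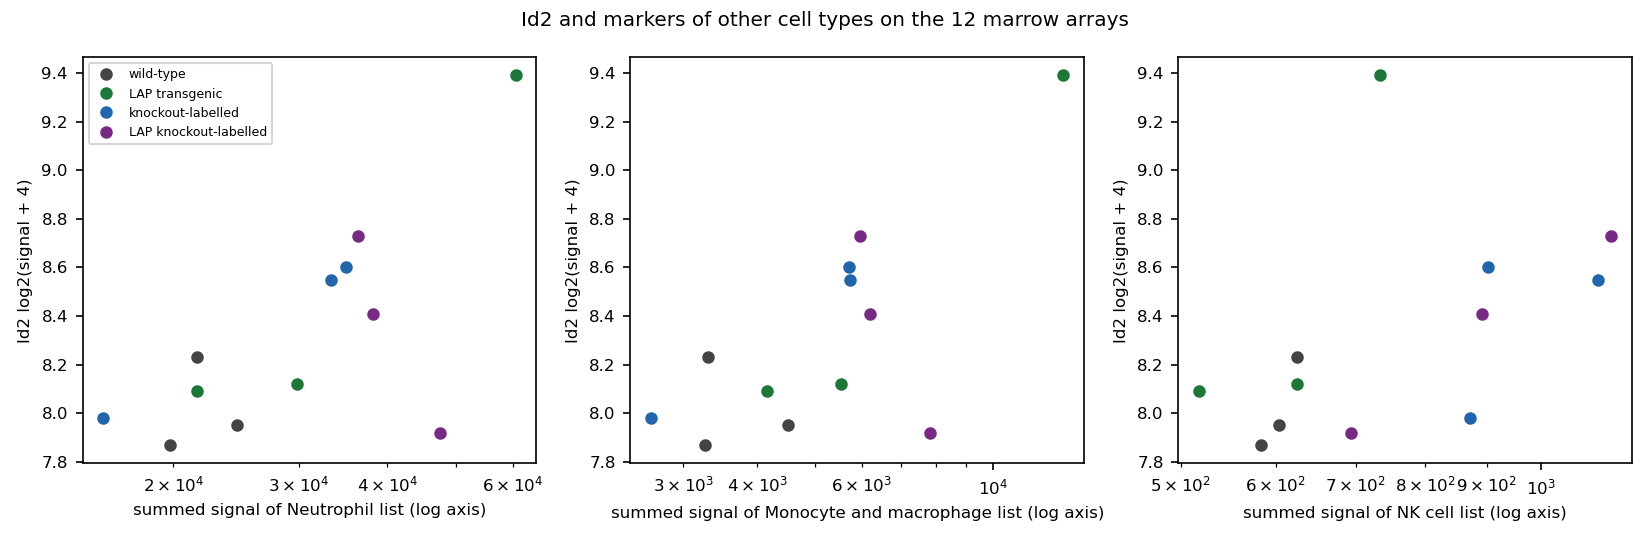
Id2 signal (vertical axes, log2(signal + 4), probe set 1435176_a_at) against the summed signal of neutrophil, monocyte and macrophage, and natural killer cell markers (horizontal log axes) on the 12 marrow arrays, coloured by group. LAP transgenic array 3, at 9.39, stands at the highest neutrophil sum (60560) and monocyte and macrophage sum (13150).

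In empty-vector LB31, where the sums of those other-cell markers were low, Id2 was lower than in marrow by all 3 probe sets. The representative read 7.01, 6.35 and 6.62 with empty vector, 6.88, 6.93 and 6.72 with BLNK, and 6.57, 6.98 and 7.05 with YF, below every marrow array. Empty-vector LB31 minus knockout-labelled marrow was -1.71 ± 0.27 (adjusted p = 1.08e-05, 3.28-fold) at this probe set, -1.53 ± 0.28 at 1422537_a_at and -0.89 ± 0.23 at 1453596_at, and against LAP knockout-labelled marrow it was -1.69 ± 0.27 (adjusted p = 1.36e-05). The natural killer sum was 40.76 to 68.54 and the monocyte and macrophage sum 136.6 to 287.7 on LB31 arrays. With empty vector, Nkg7 exceeded the filter level on no array, Ncr1 and Gzma on 1, Klrd1 on 2 and Prf1 on 3. Prf1 averaged 4.94 there, against 4.65 in wild-type marrow. Within LB31, 1453596_at changed by 0.71 ± 0.29 with BLNK against empty vector (adjusted p = 0.15), where the arrays did not overlap, and the representative by 0.20 ± 0.18 (adjusted p = 0.562).

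Of 9 relatives of the members in the same families, 6 were measured. In LAP knockout-labelled against wild-type marrow the E-protein gene Tcf4 was higher (0.41, adjusted p = 0.00362) and the E-protein gene Tcf12 was lower (-0.46, adjusted p = 0.000969). There 29.6% of genes were called. Tcf12 was also lower with LAP alone (-0.36, adjusted p = 0.0363, 3.28% of genes called), a call lost without LAP transgenic array 3 (-0.27, adjusted p = 0.0884). Tcf4 was higher with the knockout label alone (0.38, adjusted p = 0.0111, 15.4% of genes called). LAP knockout-labelled marrow had Tcf12 lower than knockout-labelled marrow (-0.31, adjusted p = 0.047, 6.75% of genes called). It had Tcf4 higher than LAP transgenic marrow (0.38, adjusted p = 0.00743, 25.3% of genes called). Id1 and Id4, the other ID genes, did not pass in marrow, with 0.76 (adjusted p = 0.121) and 0.82 (adjusted p = 0.124) for LAP transgenic against wild-type. Between the LB31 groups none passed, the nearest being Pou2f3 at -1.28 for BLNK against YF (adjusted p = 0.0648). Against knockout-labelled marrow, empty-vector LB31 was lower for 4 of them (59.2% of genes called), Tcf12 (-1.48, adjusted p = 1.97e-13), Tcf4 (-1.08, adjusted p = 8.28e-11), Id1 (-1.79, adjusted p = 0.000342) and Ebf3 (-1.37, adjusted p = 0.0197).

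Across the 21 arrays the members' representative signals were related unevenly. Ebf1 went with Id3 (r = 0.848), Pou2af1 (r = 0.835) and Id2 (r = 0.784), whereas Pou2f2 was unrelated or opposite to them (r = -0.361 with Ebf1 and -0.0384 with Pou2af1). These values are descriptions only, since all points share the contrast of 12 marrow with 9 LB31 arrays. Over the 12 marrow arrays, among 13341 genes compared, the genes most like Pou2f2 were Bcl3 (r = 0.98), Blk (r = 0.976) and Spib (r = 0.97). Those most like Id2 were Cttnbp2nl (r = 0.972), C1qb (r = 0.946), a complement gene of macrophages, and Vcam1 (r = 0.936), an adhesion molecule. Those most like Ebf1 were Pramel12 (r = 0.97), Emc2 and Cep68, those most like Id3 were Zfp654 (r = 0.934), Gtf2a2 and Lca5, and the highest r with Pax5 was 0.893 (Rpl27a). Likeness over 12 arrays in 4 groups mostly reflects the group means, and nothing is drawn from it about control.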

How the data were processed

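RNA from 21 samples (100 ng each, biotin-labelled) was hybridised to Affymetrix mouse arrays. The deposited values are linear probe-set intensity values, made with MAS5 per the submitters' processing notes, with no version given in the sources used here. The table holds 45101 probe sets, of which 64 controls were left out, 34945 have 1 gene symbol in the platform annotation, 932 several and 9160 none. Signals were taken as log2(signal + 4) and quantile-normalized within each fit. Probe sets above the 40th percentile of their own array on at least 3 arrays were tested with limma 3.58.1 (R 4.3.3; lmFit and eBayes with an intensity trend), with group means as the only terms. Calls are two-sided at a Benjamini-Hochberg adjusted p under 0.05 over all probe sets tested, in 11 comparisons. Where a gene has several probe sets, the brightest on average stands for it. Values are not comparable between probe sets. The number of arrays (3 per group) limits the precision. Named genes are the 7 members, genes of the lists and the 3 genes most alike by correlation. The members and lists were chosen with earlier results of these data known. Some listed genes were not analysed here. The code was tested on simulated data. Alternatives were the values as deposited, median centring, pseudocounts of 1 and 16, no filter, 1 probe set per gene, a replicate block, all 21 arrays fitted together, and leaving out each array. Summed marker signals are sums of normalized linear signals.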

Additional observations from a re-analysis of the deposited data

Results flagged for a closer look

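At Tcf3 probe set 1427764_a_at the LAP change differed between knockout-labelled and wild-type marrow by -0.75 ± 0.15 (interaction, adjusted p = 0.0247, limma). LAP went with 0.59 in the absence of the knockout label and with -0.17 in its presence. The call was lost without wild-type array 1, 2 or 3, LAP transgenic array 2, knockout-labelled array 1 or 2 or LAP knockout-labelled array 2 or 3 (adjusted p between 0.00926 and 0.0786 over the 12 arrays left out), with median centring (-0.65, adjusted p = 0.0801) and in the values as deposited (-0.61, adjusted p = 0.147). The other Tcf3 probe sets gave -0.35 ± 0.18 (adjusted p = 0.415) and 0.01 ± 0.25 (adjusted p = 0.99).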

How the results depend on the processing

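Under pseudocount 16, 77 of 77 results of the representative probe sets kept their call, and kept their direction wherever they were called. The same held for 75 under pseudocount 1, 76 with 1 probe set per gene, 72 with no filter and 74 with the replicate block. It held for 68 with median centring, 66 in the values as deposited, and 58 of 63 with all 21 arrays fitted together. A change of direction in a result called in neither setting was not counted. The number of members called moved for knockout-labelled minus wild-type from 0 to 3 as deposited and 1 with all 21 arrays, for LAP knockout-labelled minus knockout-labelled from 2 to 1 as deposited, with median centring and with no filter, and to 3 with 1 probe set per gene or all 21 arrays, for BLNK minus empty vector from 3 to 1 as deposited and 2 with no filter or all 21 arrays, and for YF minus empty vector from 1 to 3 with median centring and to 0 with pseudocount 1, no filter, the replicate block or all 21 arrays. It went from 3 to 2 for LAP knockout-labelled minus wild-type (as deposited, pseudocount 1, no filter, replicate block). BLNK minus YF also went from 3 to 2 (as deposited, median centring, no filter, replicate block, all 21 arrays). LAP knockout-labelled minus LAP transgenic went from 3 to 4 as deposited. Empty-vector LB31 minus knockout-labelled marrow went from 6 to 4 with median centring, and minus LAP knockout-labelled marrow from 5 to 7 as deposited and 4 with median centring. Leaving out 1 array gave 0 to 1 for knockout-labelled minus wild-type, 1 to 1 for LAP transgenic minus wild-type, 2 to 3 for LAP knockout-labelled minus wild-type, 0 to 3 minus knockout-labelled and 2 to 3 minus LAP transgenic, 0 to 0 for the interaction, 2 to 4 for BLNK minus empty vector, 0 to 3 for YF minus empty vector, 2 to 3 for BLNK minus YF, and 5 to 6 for empty-vector LB31 minus either marrow group. Reversed, among results called before or after the change of processing, were Tcf3 1427764_a_at in LAP knockout-labelled minus LAP transgenic (-0.33 to 0.06 as deposited), Ebf1 1416302_at in BLNK minus empty vector (-0.18 to 0.04 as deposited and 0.06 with median centring), and, with median centring, Tcf3 1426297_at in empty-vector LB31 minus knockout-labelled marrow (0.08) and Pou2af1 minus LAP knockout-labelled marrow (0.19). The range of the 7 group means moved for Pax5 from 0.86 to 1.52, Tcf3 from 0.53 to 0.75, Pou2f2 from 1.94 to 1.62 and Id3 from 1.87 to 2.14 as deposited, and with median centring for Ebf1 from 2.05 to 1.61, Tcf3 to 0.91, Pou2af1 from 0.69 to 0.82 and Id3 to 1.63. The scalings shift all genes: for YF minus empty vector the median probe set stood at 0.00, 0.31 as deposited and 0.21 with median centring, and for empty-vector LB31 minus knockout-labelled marrow at 0.08, -0.42 and 0.23. Of all probe sets, YF minus empty vector called 67, 327 as deposited, 1833 with median centring, 23 with no filter, 4 with the replicate block and 16 with all 21 arrays. BLNK minus empty vector called 3373, 736 as deposited and 1465 with all 21 arrays, and BLNK minus YF 1886, then 783, 1080 with median centring and 682. Knockout-labelled minus wild-type called 3811 and 6910 as deposited, LAP knockout-labelled minus LAP transgenic 6357 and 11804, LAP transgenic minus wild-type 774 and 1853 with all 21 arrays, and the interaction 365, then 212 as deposited and 885 with all 21 arrays. Fits with 1 probe set per gene test fewer features and called 2277 for knockout-labelled minus wild-type, 4163 for LAP knockout-labelled minus wild-type, 3601 minus LAP transgenic, 231 for the interaction, 2072 for BLNK minus empty vector, 1174 minus YF, and 8695 and 8614 for empty-vector LB31 minus knockout-labelled and minus LAP knockout-labelled marrow. The cause of the other moves was not tested. Replicate numbers showed no clear pairing of the samples: deviations of same-numbered samples correlated at -0.0858 to 0.242 in marrow (1 of 18 pairs over 0.1) and at -0.0289 to 0.0167 in LB31 (0 of 9). Differently numbered samples gave -0.251 to 0.203 in marrow (1 of 36 over 0.1) and -0.0402 to 0.0367 in LB31 (0 of 18). With 3 samples per group, such values cannot show whether same-numbered samples shared a batch. With the replicate block, the call of Tcf3 in YF minus empty vector was lost (0.36, adjusted p = 0.06), and so were those of Ebf1 in LAP knockout-labelled minus wild-type (0.55, adjusted p = 0.0576) and Pou2af1 in BLNK minus YF (0.15, adjusted p = 0.0558). Signals near the filter level limit Pou2f2 in LAP knockout-labelled marrow and the dim probe sets of Ebf1, Pax5 and Id2.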
